A study of Mus musculus with 8 samples.

Results

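The expression of the interleukin-1 (IL-1) family cytokines and receptors was examined in the ipsilateral hemisphere of mice after permanent occlusion of the middle cerebral artery (PMCAO) or sham operation, each followed by PACAP38 or saline. The members were 9 genes given by symbol, namely Il1a, Il1b, Il1rn, Il1r1, Il1r2, Il1rap, Il1rl1, Il18 and Il33, of 22410 named genes on the array. They were read by 18 of its 41174 probes, of which 17 carried the symbol in the array files. The Il33 probe was listed there as 9230117N10Rik and was matched by its accession.

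All groups were male C57BL/6J mice of 8 to 12 weeks. The right middle cerebral artery was permanently occluded with an intraluminal filament (PMCAO), or the external carotid artery was only exposed (sham). Immediately afterwards 1 pmol PACAP38, a neuropeptide, in 1 µl, or 1 µl saline, was given intracerebroventrically, and the brain was taken after 6 h or 24 h. Each of the 8 groups was 1 pool of RNA from 3 mice, with 300 ng per mouse, and the PMCAO mice were chosen for neurological grades 1 and 2. The tissue was the hemisphere without olfactory bulb and cerebellum, and it held infarcted and spared regions together. In it fewer cells of a type and less RNA per cell cannot be told apart. PACAP38 and saline pools were hybridized together on 2-colour arrays, 2 per comparison, with PACAP38 in Cy5 on array 1 and in Cy3 on array 2. Both arrays of a comparison carried the same RNA and counted as 1 replicate. The arrays of 6 h and of 24 h were on different slides, so time and slide cannot be told apart.

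IL-1α, IL-1β, IL-18 and IL-33 are cytokines that alarm neighbouring cells after injury, and IL-1β and IL-18 are cut to their active forms by caspase-1 in the inflammasome. IL-1α and IL-1β bind the receptor encoded by Il1r1, which signals together with the accessory protein encoded by Il1rap, whereas IL-33 uses the receptor encoded by Il1rl1 (ST2) with the same accessory protein. The antagonist encoded by Il1rn occupies the receptor without signalling, and the receptor encoded by Il1r2 is a decoy. In the brain, IL-1 made by microglia and infiltrating myeloid cells is a classical mediator of ischemic inflammation.

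The probes were 60-mers and lay on mouse chromosomes 1, 2, 9, 16 and 19. The sequences of the probes that carried the main differences, and of an Il1rap and an Il1rl1 probe for another transcript of the same gene, are given 5′ to 3′ as in the array files, with positions in build mm7. No part is in capitals because the whole 60-mer is the measured site. The Il1b probe lay at chr2:129105464-129105523 on the minus strand, and the Il1rn probe A_52_P431159 at chr2:24357916-24357975 on the plus strand. The Il1r2 probe A_51_P470079 lay at chr1:40362239-40362298, plus strand. The Il1rap probe A_52_P467232 (transcript variant 2, NM_134103) lay at chr16:26362501-26362560 and the Il1rap probe A_51_P136742 (transcript variant 1, NM_008364) at chr16:26377135-26377193, both on the plus strand. The Il1rl1 probe A_52_P484194 (transcript variant 1, NM_001025602) lay at chr1:40705585-40705644 and the Il1rl1 probe A_51_P339793 (transcript variant 2, NM_010743) at chr1:40688351-40688410, both on the plus strand.
Il1b A_51_P212782: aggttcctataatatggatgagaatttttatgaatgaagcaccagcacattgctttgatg
Il1rn A_52_P431159: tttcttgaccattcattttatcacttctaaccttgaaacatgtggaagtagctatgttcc
Il1r2 A_51_P470079: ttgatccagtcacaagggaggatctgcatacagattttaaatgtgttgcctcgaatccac
Il1rap A_52_P467232: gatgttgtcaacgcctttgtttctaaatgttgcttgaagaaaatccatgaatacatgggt
Il1rap A_51_P136742: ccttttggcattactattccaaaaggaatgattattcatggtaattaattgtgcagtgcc
Il1rl1 A_52_P484194: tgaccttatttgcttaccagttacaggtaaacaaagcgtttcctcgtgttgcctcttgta
Il1rl1 A_51_P339793: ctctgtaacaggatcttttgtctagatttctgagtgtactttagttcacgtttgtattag

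Of the 18 probes, 12 matched the genome in 1 stretch of 60 bases, and 5 spanned over 100 bases and so crossed an intron. Their GC content was 35% to 45%. Position relative to the coding part of each transcript was not analysed here. The Il1b and Il18 probes were each printed as 10 spots.

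Signals are given as the processed signal scaled to the 75th percentile of each array channel (scaled signal), and they are compared between pools of 1 probe and not between probes. Of the 18 probes, 8 were well above background in all 16 channels, 7 in some channels and 3 in none. The last 3 were the Il1rn probe A_51_P307166 and the Il1rl1 probes A_51_P339793 and A_52_P19955. No member spot was saturated.

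Array 2 of the sham pools of 6 h stood apart. Its channels correlated with the other 14 at 0.813 to 0.879 (Pearson, log2 signal of 17639 probes), while the 14 correlated with one another at 0.944 to 0.995. Outlier spots were 10.7% on this array and 0.323% to 3.09% on the other 7. PMCAO over sham values of 6 h are therefore given with and without this array.

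Ratios of PACAP38 over saline came from the arrays that held both pools. Over all probes with a value on every array, the log2 ratios of the 2 arrays of a comparison did not reproduce each other. Their Pearson correlation was -0.147 in sham and -0.143 in PMCAO at 6 h, and -0.405 in sham and 0.046 in PMCAO at 24 h. Upregulated means a mean of both arrays over 1.5-fold and downregulated one under 0.75-fold, with no test because each comparison had 1 replicate. In the PMCAO mice of 24 h, 8 of the 18 member probes were downregulated and none was upregulated, where 8.18% of all probes were downregulated and 2.99% upregulated. All 8 were past 0.75-fold on both arrays, as were 3.75% of all probes, and none was past 1.5-fold on both (0.823%). They were the probes of Il1a (2), Il1b, Il1rn (1 of 2), Il1r2 (2), Il1rap (1 of 5) and Il33. In the PMCAO mice of 6 h, 2 member probes were upregulated, those of Il1b and 1 of Il1rap, both on both arrays, and none was downregulated, where 5.41% of all probes were upregulated and 6.9% downregulated (1.14% and 1.63% on both arrays). Both calls of 6 h were lost with normexp background correction and loess, which gave log2 ratios of 0.31 (Il1b) and 0.39 (Il1rap A_52_P467232). At 24 h these probes were at -1.73 and -0.84. Of the 8 calls of 24 h, 6 were kept in that setting, and those of the Il1a probes were lost.

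In the sham mice the members differed less. At 24 h none of the 18 was past either fold (background 1.75% upregulated and 3.87% downregulated, 0.226% and 0.892% on both arrays). At 6 h, 2 of 17 with a value on both arrays were downregulated, where 7.48% of all probes were downregulated and 3.98% upregulated (1.04% and 0.79% on both arrays). They were Il1rap probes A_52_P207374 and A_52_P467232, at log2 ratios of -0.46 and -0.53, and neither was past the fold on both arrays. The median log2 ratio of the member probes was -0.23 in PMCAO at 24 h, 0.15 in PMCAO at 6 h and 0.00 in both sham comparisons, and that of all probes was 0.00 in each.

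**Figure D1:**
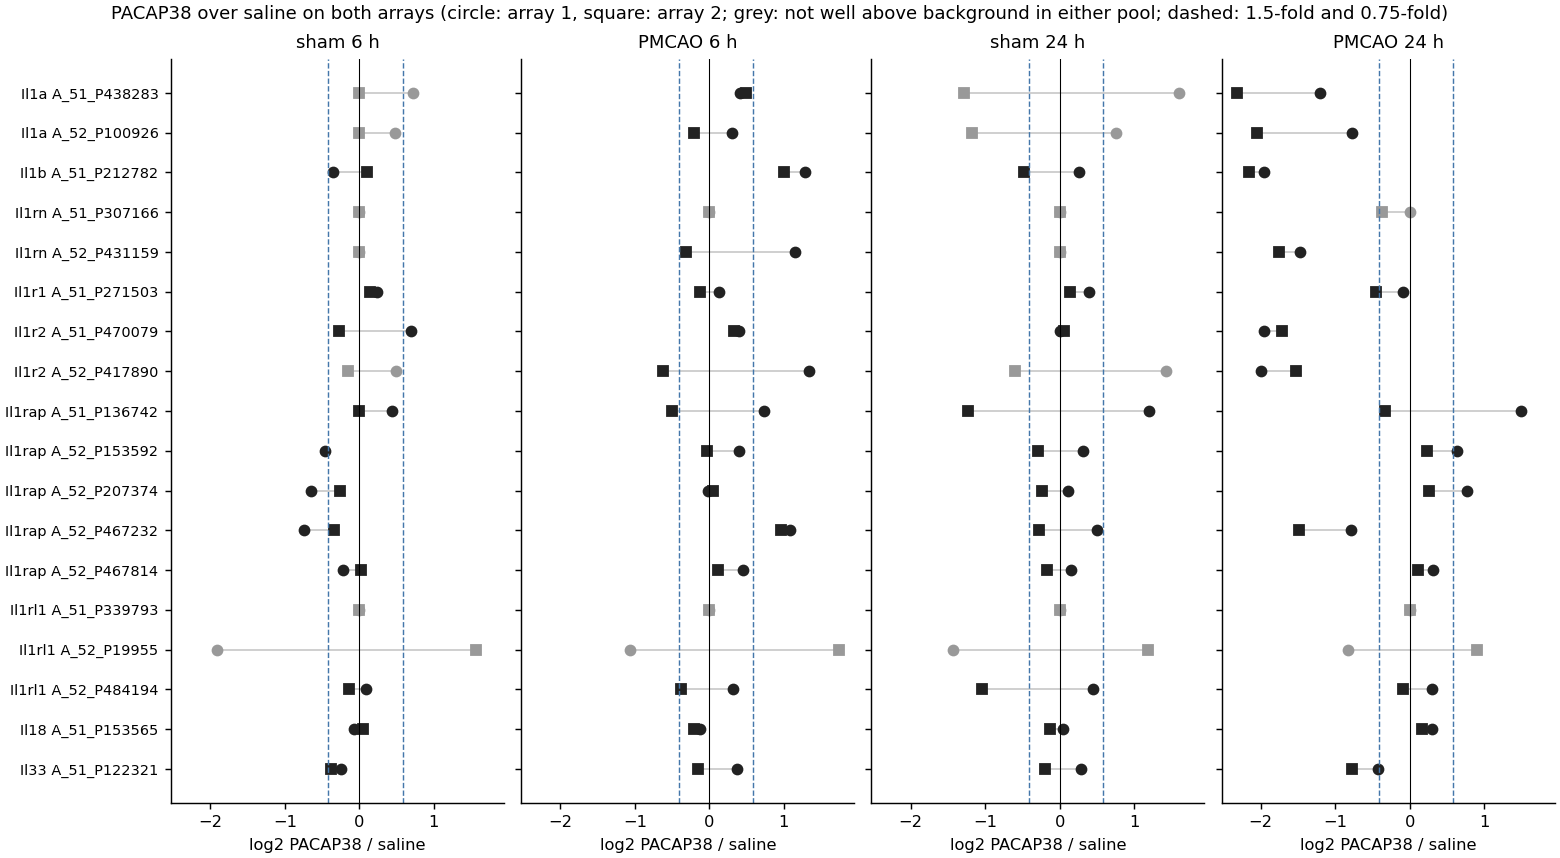
PACAP38 over saline (log2 ratio, x axis) of the 18 member probes (y axis) in the 4 comparisons, with both dye-swapped arrays as separate points; grey points are probes not well above background in either pool, and dashed lines mark 1.5-fold and 0.75-fold. In PMCAO at 24 h the points of 8 probes lie left of the lower line on both arrays, while in PMCAO at 6 h the Il1b probe and Il1rap probe A_52_P467232 lie right of the upper line on both.

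Il1b, which encodes the secreted cytokine IL-1β, differed between the PMCAO pools of both times. At 24 h its scaled signal was 35.1 and 48.3 in the sham plus saline pool (array 1 and array 2) and 42.2 and 34.7 in the sham plus PACAP38 pool. It was 611 and 651 in the PMCAO plus saline pool and 159 and 147 in the PMCAO plus PACAP38 pool. Both PMCAO pools lay above both sham pools on every array, and the saline pool lay above the PACAP38 pool. The log2 ratio of PACAP38 over saline was -1.95 and -2.16 on the arrays, with a mean of -2.06, which is 0.24-fold.

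At 6 h the order of the PMCAO pools was the opposite. The Il1b signal was 76.6 and 84.6 in the PMCAO plus saline pool and 188 and 168 in the PMCAO plus PACAP38 pool, with log2 ratios of 1.29 and 1.00 and a mean of 1.15 (2.21-fold). In the sham pools of 6 h it was 50.8 (saline) and 40.1 (PACAP38) on array 1 but 226 and 241 on array 2, the array that stood apart. On array 1 both sham pools lay below both PMCAO pools, and on array 2 above them. Without array 2 of these sham pools, the order over all 8 pools was PMCAO plus saline at 24 h, PMCAO plus PACAP38 at 6 h, PMCAO plus PACAP38 at 24 h, PMCAO plus saline at 6 h and then the sham pools. Among these the single value of sham plus saline at 6 h (50.8) was the highest, and the others overlapped between 34.7 and 48.3. In sham mice the Il1b log2 ratio was -0.35 and 0.10 at 6 h and 0.25 and -0.48 at 24 h, of opposite sign on the arrays each time.

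The spots of the Il1b probe gave the precision within an array, which covers spotting and scanning only. In PMCAO at 24 h the log2 ratio had a mean of -1.95 with an SD of 0.049 over 10 spots on array 1, and of -2.16 with an SD of 0.046 over 10 spots on array 2. Averaged spot by spot over both arrays, the SD was 0.028 over 10 spots. In PMCAO at 6 h the SDs were 0.235 over 10 spots and 0.213 over 9 spots, and the lowest spot was at 0.76. No spot of these comparisons crossed 0, whereas the spots in sham mice lay between -0.82 and 0.57.

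**Figure D2:**
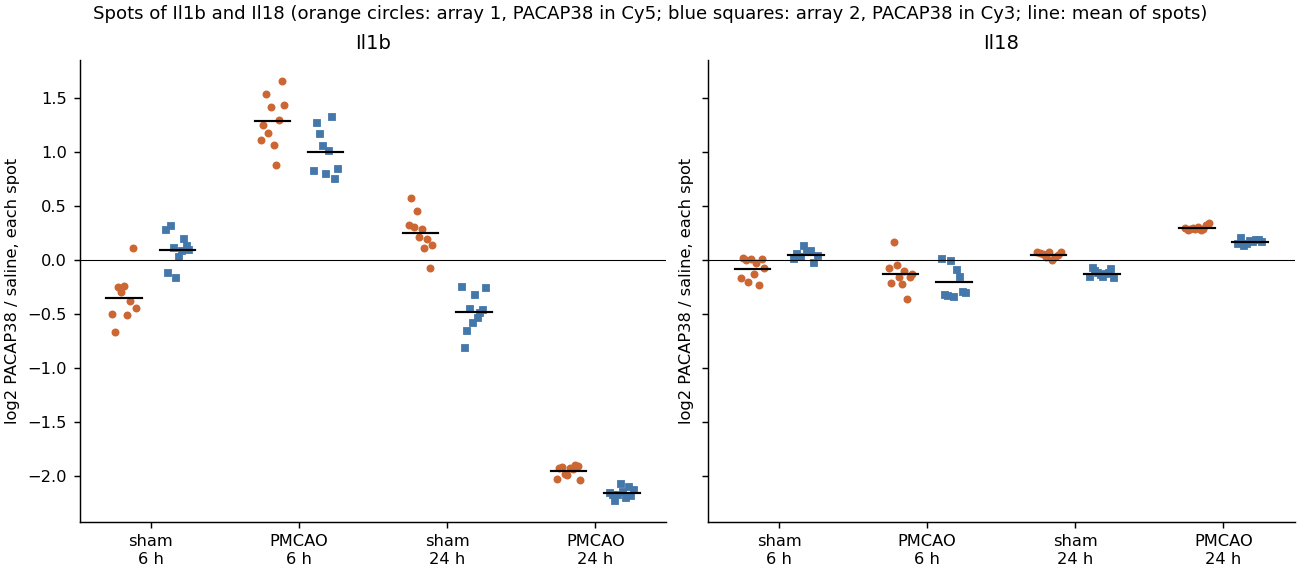
Log2 ratio of PACAP38 over saline (y axis) at each spot of the Il1b and Il18 probes in the 4 comparisons; orange circles are array 1 and blue squares array 2. The Il1b spots lie between 0.76 and 1.66 in PMCAO at 6 h and between -2.23 and -1.90 in PMCAO at 24 h, while the Il18 spots stay between -0.36 and 0.35 throughout.

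Il1a encodes IL-1α, a cytokine active in its uncut form. Its probes were near background: A_51_P438283 ranged from 3.75 to 42.1 over all channels and A_52_P100926 from 3.32 to 30.6. At 24 h the PMCAO plus saline pool gave 25.1 and 26.9 with A_51_P438283, and the PMCAO plus PACAP38 pool gave 10.96 and 5.40, not well above background, so PACAP38 was at least 1.74-fold lower. With A_52_P100926 the signals were 25.8 and 25.2 against 15.2 and 6.13, the last not well above background, with log2 ratios of -0.77 and -2.05. The PMCAO plus PACAP38 pool was the lower on both arrays with both probes, but the arrays differed in size by over 1 log2 unit. With normexp and loess the mean log2 ratios at 24 h were -0.29 (A_51_P438283) and -0.27 (A_52_P100926), past neither fold. At 6 h the log2 ratios of both probes in PMCAO were between -0.21 and 0.49 on the arrays.

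Il1rn encodes the receptor antagonist. With A_52_P431159, the PMCAO plus saline pool of 24 h gave 235 and 264 and the PMCAO plus PACAP38 pool 85.7 and 79.1. In the sham pools of both times the signals were 2.84 to 6.46, none well above background. The log2 ratio of PACAP38 over saline in PMCAO at 24 h was -1.47 and -1.75, with a mean of -1.61 (0.33-fold). At 6 h the PMCAO pools gave 10.88 and 16.05 with saline and 24.4 and 12.8 with PACAP38, and only the 24.4 was well above background, so no ratio is given. The other Il1rn probe, A_51_P307166, gave 3.33 and 5.20 in the PMCAO plus saline pool of 24 h. It was not well above background in any pool, so the Il1rn difference rests on A_52_P431159 alone.

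Il1r2 encodes the decoy receptor, and both of its probes gave the same order of pools at 24 h. With A_51_P470079 the signals were 448 and 416 in the PMCAO plus saline pool, 116 and 128 in the PMCAO plus PACAP38 pool and 22.5 to 24.3 in the sham pools. With A_52_P417890 they were 146 and 160, 37.0 and 56.0, and 4.30 to 15.9, the last not well above background on any array. The mean log2 ratios of PACAP38 over saline were -1.83 (0.28-fold) and -1.76 (0.30-fold). At 6 h the signals of A_51_P470079 were 119 and 128 in the PMCAO plus saline pool and 158 and 160 in the PMCAO plus PACAP38 pool, a log2 ratio of 0.37 that was not past 1.5-fold. The PACAP38 pool was the higher at 6 h and the lower at 24 h with this probe.

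Il1r1, the signalling receptor, differed little with PACAP38. Its signal was 571 and 724 in the PMCAO plus saline pool and 630 and 656 in the PMCAO plus PACAP38 pool of 6 h. At 24 h it was 773 and 886 with saline and 732 and 654 with PACAP38. The log2 ratios in PMCAO were 0.00 at 6 h and -0.27 at 24 h. None of its 4 comparisons was past the fold.

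**Figure D3:**
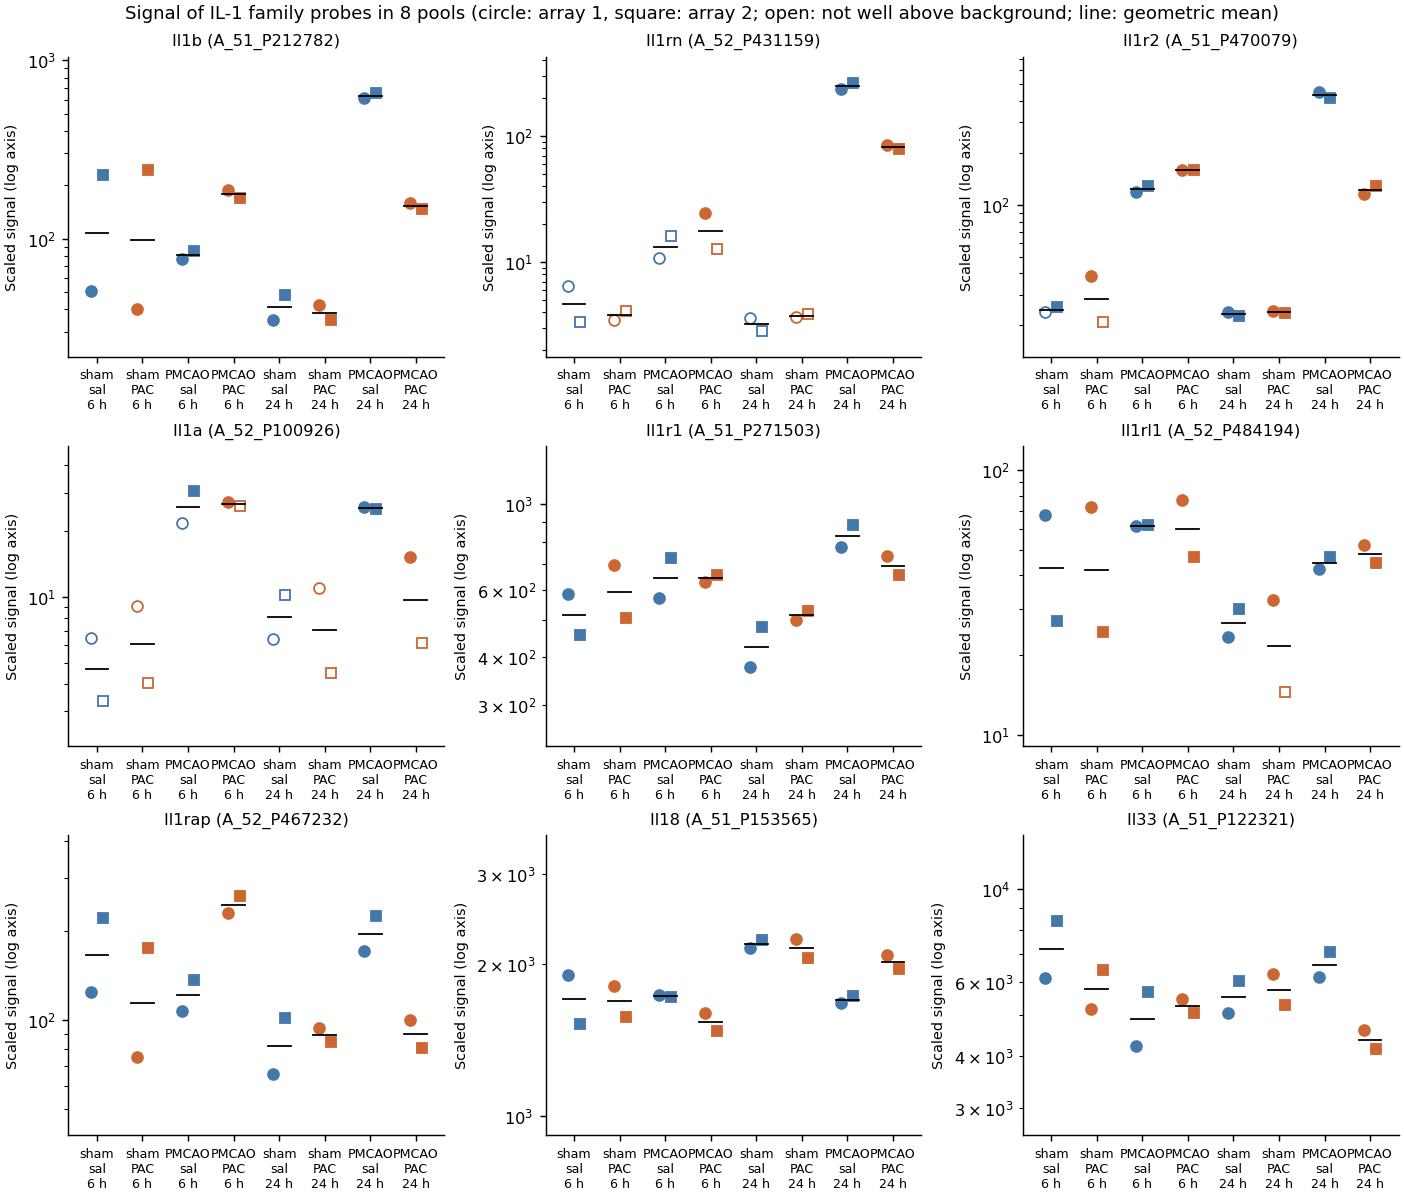
Scaled signal (log y axis) of 1 probe for each of the 9 genes in the 8 pools (x axis); circles are array 1, squares array 2, blue saline, orange PACAP38, open symbols values not well above background, and lines the geometric mean. Il1b, Il1rn and Il1r2 have their highest signal in the PMCAO plus saline pool of 24 h (611 and 651, 235 and 264, 448 and 416), and the sham 6 h squares of Il1b are far above the circles.

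Il1rap, the accessory protein of both the IL-1 and the IL-33 receptor, was read by 5 probes on chromosome 16, and they did not give the same values. A_52_P467232 was designed on transcript variant 2, which encodes a soluble form that lacks the signalling part, and lies furthest upstream. The other 4 start 14634, 15691, 23361 and 28318 bases further on. Its signal in the PMCAO pools of 6 h was 107 and 137 with saline and 229 and 262 with PACAP38. At 24 h it was 171 and 223 with saline and 100.07 and 80.5 with PACAP38. The mean log2 ratio was 1.02 (2.03-fold) at 6 h and -1.13 (0.46-fold) at 24 h, the same order of signs as Il1b.

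None of the 4 other Il1rap probes was past either fold in PMCAO. At 24 h their log2 ratios were 0.58 (A_51_P136742), 0.21 (A_52_P467814), 0.51 (A_52_P207374) and 0.43 (A_52_P153592), opposite in sign to A_52_P467232. At 6 h they were between 0.01 and 0.28. A_51_P136742, on transcript variant 1, was well above background only in Cy5 and gave ratios of opposite sign on the arrays (1.49 and -0.34 at 24 h), so its values carry little. A_52_P467814, A_52_P207374 and A_52_P153592 were well above background in every channel with a value, with signals of 347 to 578, 141 to 326 and 299 to 502. The last was marked as an outlier on array 2 of the sham pools of 6 h and has 1 value there.

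**Figure D4:**
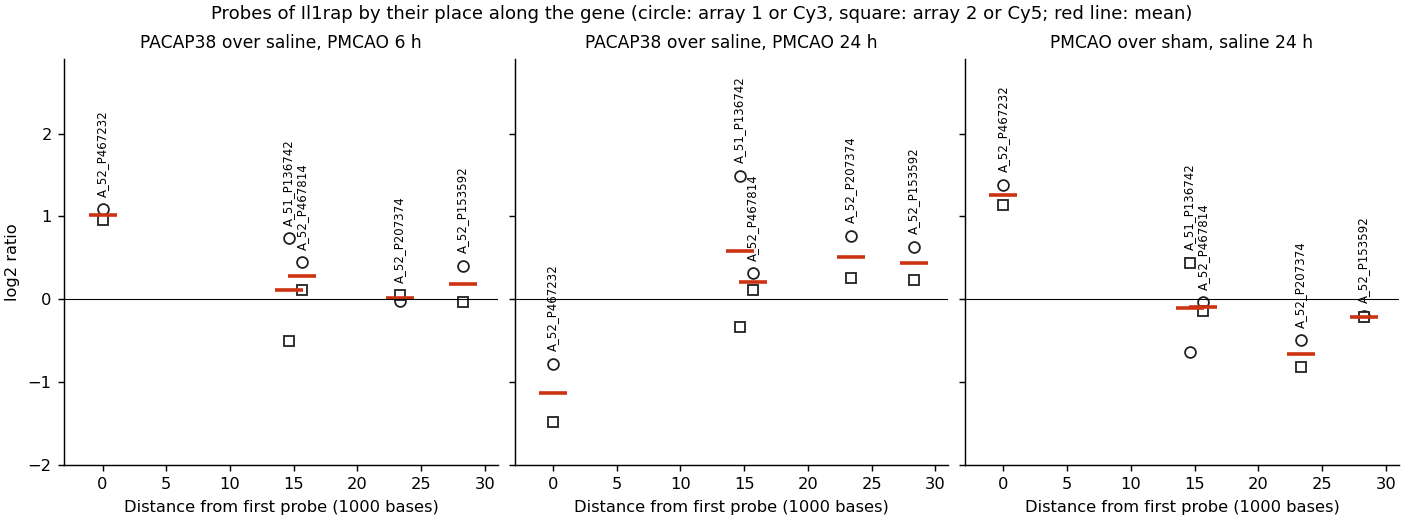
Log2 ratio (y axis) of the 5 Il1rap probes by distance from the start of the first (x axis, in units of 1000 bases) for PACAP38 over saline in PMCAO at 6 h and 24 h and for PMCAO over sham with saline at 24 h. Open symbols are single arrays or dyes, and red lines are their means. The mean of the first probe is at 1.02, -1.13 and 1.26, and the means of the others are within 0.01 to 0.28, 0.21 to 0.58 and -0.66 to -0.09. The single arrays spread more widely, as for A_51_P136742 with PACAP38 at 24 h (1.49 and -0.34).

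Il1rl1 encodes the IL-33 receptor ST2. The probes designed on transcript variant 2, which encodes soluble ST2, were well above background in no channel. Whether they read that transcript alone was not tested. The probe on transcript variant 1, A_52_P484194, gave 42.2 and 47.1 in the PMCAO plus saline pool and 52.2 and 44.7 in the PMCAO plus PACAP38 pool of 24 h, a log2 ratio of 0.11. The sham pools of 24 h gave 23.6 and 29.8 with saline and 32.3 and 14.6 with PACAP38, the last not well above background. All 4 PMCAO values of 24 h, 42.2 to 52.2, lay above the sham values of that time.

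Il33, the cytokine that binds ST2, had signals of 6150 and 7059 in the PMCAO plus saline pool and 4596 and 4136 in the PMCAO plus PACAP38 pool of 24 h. The log2 ratio of PACAP38 over saline was -0.43 and -0.78, with a mean of -0.61 (0.66-fold). At 6 h in PMCAO it was 0.36 and -0.15, of opposite sign on the arrays. Il18, which encodes the caspase-1 substrate IL-18, had signals of 1676 and 1724 against 2077 and 1949 at 24 h and a log2 ratio of 0.23, past neither fold. Its spots had SDs of 0.021 and 0.023 on the arrays and all lay above 0, the sign opposite to that of Il1b in the same tissue.

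A mean effect of PACAP38 over all 4 comparisons, as 4 pairs of pools, was tested with limma, which asks only for a difference shared by both surgeries and both times. Of 36121 probes none was past an adjusted p of 0.05 (background 0%), and 1782 had an unadjusted p under 0.05. None of the 17 member probes tested was called, and none had an unadjusted p under 0.05. Their mean log2 ratios were -0.33 to 0.22, with a smallest adjusted p of 0.87. None of 18 was called without array 2 of the sham pools of 6 h either.

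PMCAO and sham pools were on different arrays and were compared within a dye, with saline and with PACAP38 separately. With saline at 24 h, 9 of the 18 member probes were upregulated and 1 was downregulated, all in both dyes, where 9.1% of all probes were upregulated and 14.4% downregulated (5.47% and 8.32% in both dyes). With PACAP38 at 24 h, 5 of 18 were upregulated, also in both dyes, and none was downregulated (background 6.27% and 8.46%, or 3.09% and 3.34% in both dyes). The median log2 ratio of the members was 0.64 with saline and 0.18 with PACAP38, against -0.01 and 0.02 for all probes. The saline and PACAP38 pairs used the same arrays, and the PMCAO pools were the ones compared above, so these values are not independent of the PACAP38 ratios.

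Il1b was 15.3-fold higher in PMCAO than in sham with saline (log2 4.12 in Cy3 and 3.75 in Cy5) and 3.99-fold higher with PACAP38 (2.08 and 1.91). Il1rn (A_52_P431159) was at least 15.3-fold higher with saline and at least 4.18-fold higher with PACAP38, bounds because the sham pools were not well above background. Il1r2 was 18.6-fold higher with saline and 5.11-fold with PACAP38 (A_51_P470079), and at least 8.08-fold and at least 2.38-fold with A_52_P417890. With these probes the cytokine, its antagonist and its decoy receptor were thus all higher in PMCAO with either injection. The Il1rn probe A_51_P307166, not well above background, was past neither fold (log2 0.53 with saline and 0.16 with PACAP38).

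The signalling receptors differed less between PMCAO and sham. Il1r1 was 1.95-fold higher with saline and at a log2 ratio of 0.43, not past the fold, with PACAP38. Il1rap probe A_52_P467232 was 2.39-fold higher with saline and 1.01-fold with PACAP38. Il1rap probe A_52_P207374 was 0.63-fold with saline. Il1rl1 probe A_52_P484194 was 1.68-fold higher with saline. With PACAP38 its ratio was 2.22-fold, but the sham pool was not well above background on array 2, so this size is not a bound. The Il1a probes were at least 1.75-fold and 1.88-fold higher with saline. Il18 (log2 -0.36 with saline and -0.09 with PACAP38) and Il33 (0.25 and -0.40) were past neither fold.

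With the saline and PACAP38 pairs of a time as 2 replicates, limma called 2 of 17 member probes at 24 h, both higher in PMCAO, where 1.59% of all probes were higher and 0.7% lower. They were Il1rn A_52_P431159 (adjusted p = 0.024) and Il1r2 A_51_P470079 (log2 3.28, SE 0.45, adjusted p = 0.0499). The adjusted p of Il1b was 0.082 (log2 2.97, SE 0.55) and that of Il1rl1 A_52_P484194 was 0.055 (log2 0.95, SE 0.14). The spread in this limma fit is also taken from 6 h. Without array 2 of the sham pools of 6 h none of 18 was called, with 0.0995% of all probes higher and 0.0522% lower, and the adjusted p was 0.14 for Il1rn, 0.16 for Il1r2 and 0.22 for Il1b. In the replicate block fit, with the dye as a term, 6 member probes were called by limma. They were those of Il1b (adjusted p = 0.017), Il1rn, Il1r1, Il1r2 (2) and Il1rl1. That fit takes both dye-swapped arrays of 1 RNA as separate observations, with a consensus correlation of -0.55, and so has more residual degrees of freedom than pool pairs.

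**Figure D5:**
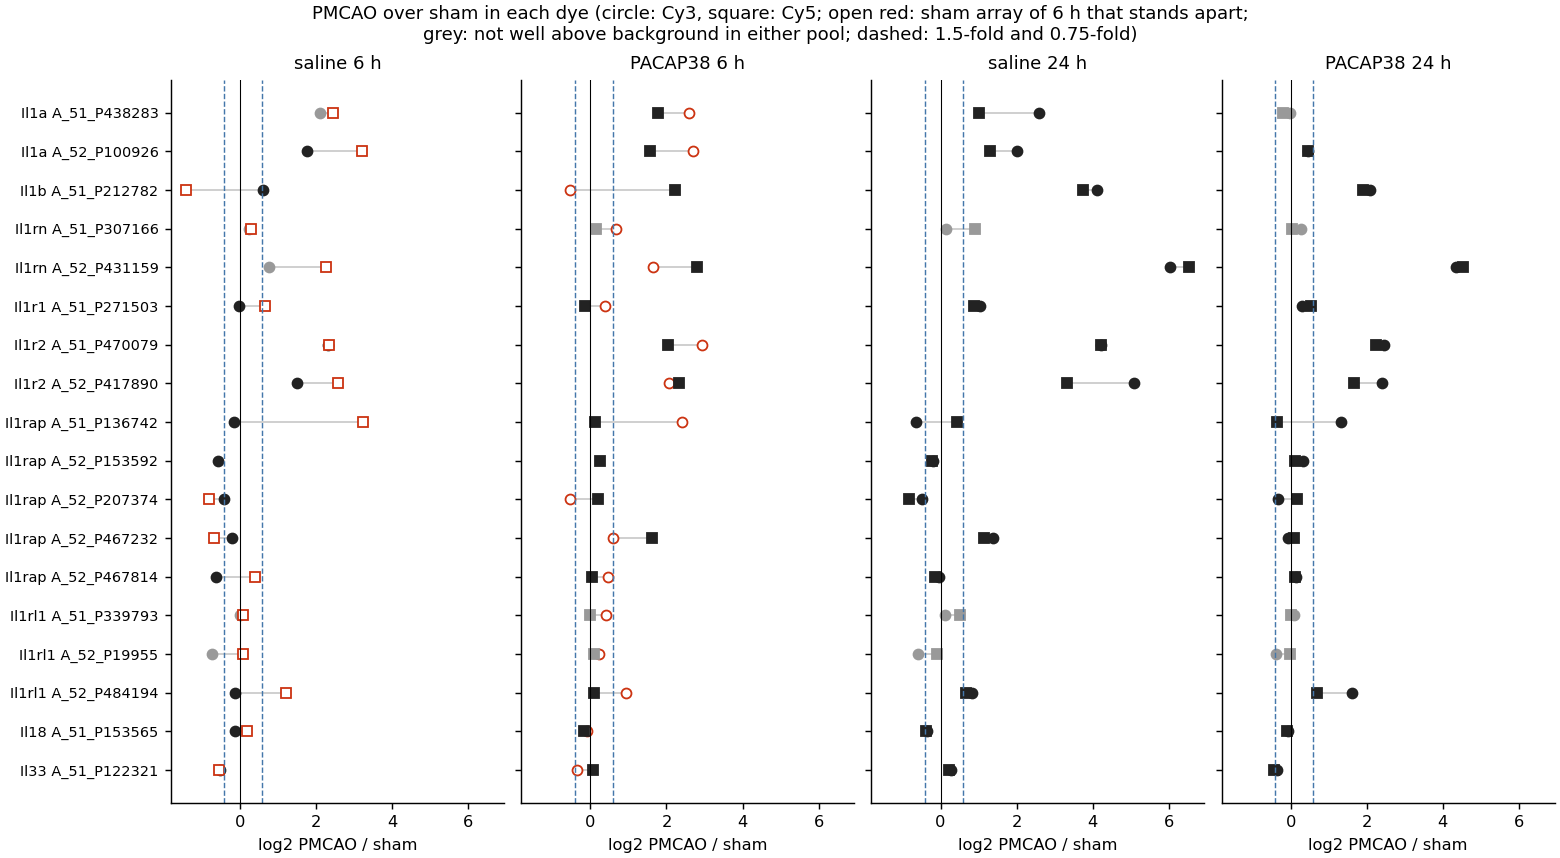
PMCAO over sham (log2 ratio, x axis) of the 18 member probes (y axis) with saline and PACAP38 at 6 h and 24 h; circles are Cy3 and squares Cy5, grey points are not well above background in either pool, dashed lines mark 1.5-fold and 0.75-fold, and open red points rest on the sham 6 h array that stood apart. At 24 h the dyes of Il1b lie close together (4.12 and 3.75 with saline), while at 6 h they lie on opposite sides of 0 (0.59 and -1.42).

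At 6 h the PMCAO over sham values depended on the sham array that stood apart. With both arrays, 6 of 17 member probes were upregulated and 3 downregulated with saline (background 32% and 20.7%), and 8 were upregulated and none downregulated with PACAP38 (31.4% and 16.5%). Without it the counts of 18 were 6 and 5 with saline (18.3% and 15.6%) and 7 and none with PACAP38 (18.6% and 9.32%). The median of all probes was itself shifted at 6 h, by 0.25 and 0.31 with both arrays and by 0.15 and 0.11 without.

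The 6 h values of Il1r2 A_51_P470079 kept their direction without that array. With saline its log2 ratio was 2.32 with both arrays and also without the array that stood apart, where PMCAO was at least 3.95-fold higher. With PACAP38 it was 2.48 with both arrays and 2.03 (4.09-fold) without. Il1b had a log2 ratio of -0.41 with saline and 0.85 with PACAP38 with both arrays, and of 0.59 (1.51-fold) and 2.23 (4.70-fold) without. Its direction with saline thus changed with that array.

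With both Il1a probes the PMCAO plus PACAP38 pool of 6 h was well above background on array 1 only, so no bound is given with both arrays. Without the array that stood apart, which leaves array 1, PMCAO was higher than sham with PACAP38. The bounds were at least 2.64-fold (A_51_P438283) and at least 1.51-fold (A_52_P100926). With saline no bound could be set. Il1rap A_52_P467232 was at 0.73-fold with saline and 2.14-fold with PACAP38 with both arrays, and at 0.86-fold and 3.05-fold without. Il33 was at 0.68-fold with saline with both arrays and at 0.69-fold without. By limma 7 of 17 member probes were called at 6 h, all higher, where 36.6% of all probes were higher and 15.4% lower. Without the array none of 18 was called, and 3 probes of 40200 were (0.00746% higher and 0% lower).

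The difference between 24 h and 6 h in PMCAO over sham was tested in the same limma fit. It called 2 of 17 member probes, Il1rn A_52_P431159, higher at 24 h (adjusted p = 0.027), and Il1rap A_51_P136742, lower (log2 -1.20, SE 0.26, adjusted p = 0.034), where 8.34% of all probes were higher and 19.9% lower. Without array 2 of the sham pools of 6 h neither was called by limma (adjusted p = 0.24 and 0.71), and no probe of 40200 was (0% either way). In the replicate block fit, with the dye as a term, limma called Il1rn and Il1b (adjusted p = 0.0090 and 0.026). It also called Il1a A_52_P100926, lower at 24 h (log2 -1.25, adjusted p = 0.045), but not Il1rap A_51_P136742 (0.091).

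The genes around the IL-1 pathway were taken from lists, and those called at 24 h by limma or past the fold on both arrays in PMCAO are named. Of 12 other IL-1 family genes and receptors 5 were well above background, and none was past the fold on both arrays with PACAP38 in either PMCAO comparison. By limma 1 was higher in PMCAO at 24 h, Sigirr, a negative regulator of IL-1 receptor signalling (adjusted p = 0.0074, 0.033 without the array that stood apart). Its sham pools of 24 h were the low ones, at 25.5 and 26.3, against 122 to 179 in the other 6.

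Of 9 inflammasome and processing genes 6 were well above background. In PMCAO at 24 h 2 were lower with PACAP38 on both arrays (3.75% of all probes), Mefv, which encodes pyrin (log2 -1.60), and Casp4, an inflammatory caspase (log2 -1.03). By limma Mefv (log2 3.98, adjusted p = 0.012) was higher in PMCAO than in sham at 24 h, as was Nlrp1a, which was not well above background (adjusted p = 0.030). Neither was called without the array that stood apart (adjusted p = 0.069 and 0.12 by limma). Of 15 signalling genes, all well above background, limma called none at 24 h, and 2 were lower with PACAP38 in PMCAO at 24 h on both arrays (3.75% of all probes), the adaptor Myd88 (log2 -0.49) and the inhibitory kinase Irak3 (log2 -0.997).

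Genes that IL-1, among other signals, is known to induce were lower with PACAP38 in PMCAO at 24 h. Of the 11 genes of this list 9 were well above background. In PMCAO at 24 h all 9 were past 0.75-fold on both arrays with PACAP38 (3.75% of all probes). Their median log2 ratio was -1.06, with a range of -2.87 to -0.68. The share counts all probes, also dim ones, whereas the 9 are genes kept for their signal. The count and the share are therefore not like for like, here and in the other lists. Il6, an acute-phase cytokine, was at 501 with saline and 104 with PACAP38 (log2 -2.28). Cxcl1, a neutrophil chemoattractant, was at 998 and 137 (log2 -2.87). Ccl2, a monocyte chemoattractant, was at 7747 and 3163 (log2 -1.30).

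In PMCAO at 6 h, by contrast, 4 of the 8 with a value were upregulated with PACAP38 (5.41% of all probes), 1 on both arrays (1.14%), Il6 (log2 1.96 and 1.24). Il6 thus had the same order of signs as Il1b. By limma 4 were higher in PMCAO than in sham at 24 h (1.59% of all probes), Il6 (adjusted p = 0.040), Cxcl1 (0.034), Ccl2 (0.0041) and Lcn2, an iron-binding acute-phase protein (0.040). The adjusted p of Ccl2 was 0.033 without array 2 of the sham pools of 6 h, and the others were 0.13 to 0.16.

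The levels of neutrophil markers were set beside these values. Of 8 markers 5 were well above background, with Elane and Camp not above it and Ly6g not found by name. Their summed signal was 721 and 1098 in the sham pools of 24 h, 47930 in the PMCAO plus saline pool and 5784 in the PMCAO plus PACAP38 pool. At 6 h it was 1683 and 2002 in the sham pools, 7876 in the PMCAO plus saline pool and 11840 in the PMCAO plus PACAP38 pool. By this sum the saline pool was the higher of the PMCAO pools at 24 h and the PACAP38 pool at 6 h, as for Il1b. Taken singly, the 5 markers had log2 ratios of PACAP38 over saline of -3.16 to -0.23 in PMCAO at 24 h. There 4 were downregulated (8.18% of all probes), all on both arrays (3.75%). At 6 h the ratios ran from -0.85 to 0.78. Then 2 were upregulated (5.41%), both on both arrays (1.14%), and 1 was downregulated (6.9%), not on both (1.63%). The part of neutrophils in the Il1b, Il1rn and Il1r2 values was not tested.

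Other cell type markers had medians nearer 0 with PACAP38 in PMCAO at 24 h. The 8 microglia and macrophage markers had a median log2 ratio of -0.09, the 5 neuron markers 0.11, the 5 astrocyte markers -0.11, the 5 oligodendrocyte markers -0.34 and the 5 endothelial markers -0.47. Of the endothelial markers 4 were downregulated (8.18% of all probes), 2 of them on both arrays (3.75%), Cdh5 (log2 -1.37) and Pecam1 (-0.63), and their part in the IL-1 family values was not tested. The T cell markers Cd3d, Cd3g and Cd2 were not well above background. The neuron, astrocyte and oligodendrocyte markers of the labelled tissue were all well above background.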

How the data were processed

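RNA of 8 pools was hybridized on 8 Agilent 4 x 44K arrays, and 4 comparisons of PACAP38 over saline had 2 dye-swapped arrays each. The authors scanned the arrays and deposited Feature Extraction output (9.5.1.1 at 6 h, 9.5.3.1 at 24 h). In the deposited output each spot has a log10 ratio of Cy5 to Cy3, taken by the software after it removed background and balanced the dyes. The deposited intensity columns hold mean, background and processed signals. A deposited table of ratios, with a score (the ratio under a minus sign) where PACAP38 was in Cy3, equalled the processed signals within 0.005 and served as an alternative. Labels number the arrays of a comparison as separate pools, whereas the methods label the same RNA both ways, so they were 1 replicate. Second copies of 3 arrays were identical and not used.

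Log10 ratios were turned to log2 of PACAP38 over saline, outlier spots were left out, spots of a probe were averaged, and then both arrays. PMCAO over sham was the same-dye difference of log2 processed signal minus the channel's 75th percentile, averaged over dyes. Scaled signals were set to a 75th percentile of 987 in each channel. A probe not well above background on both arrays of a pool has only a bound there, set against the lowest signal well above background per array after loess and Aquantile; dye bias of such bounds was not tested. limma 3.58.1 in R 4.3.3 (lmFit, eBayes, Benjamini-Hochberg over all probes, adjusted p under 0.05) was fitted to 4 pool pairs per contrast, with 3 residual degrees of freedom for PACAP38 and 2 for PMCAO, so p-values measure the spread between these pools. Sham and PMCAO never shared an array, whereas the saline and PACAP38 pairs of a time shared all 4, so a deviation of an array enters both pairs and not their spread. The number of arrays limits precision.

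On simulated data over 36121 probes, limma recovered 77 of 200 probes changed 2-fold and 180 of 200 changed 8-fold for PACAP38 (2 and 8 false calls), and 0 and 158 of 200 for PMCAO at 24 h (0 and 6 false calls). Noise in the simulation was drawn separately for each pool pair. It held no array deviation shared by the saline and PACAP38 pairs of a time, so the false calls for PMCAO do not cover that error. Array numbers of the labels are the dye orientations. Deviations from the comparison means correlated between same-numbered arrays at 0.232 to 0.639. A replicate block fit was therefore made as an alternative, with the pool pair as a random block. For PACAP38 over saline its added term was the array number. For PMCAO over sham the term was the dye. Array 1 is Cy3 for saline and Cy5 for PACAP38, so that fit did not pair by array number. Other alternatives were normexp (offset 50) with loess, the median as the scale, 1 array alone, outlier spots kept, other thresholds, filters on dim probes, a trend in eBayes, and each pool pair left out. Leaving out array 2 of the sham pools of 6 h was chosen after seeing the data.

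Named were all probes of the 9 member genes, genes of the pathway lists called by limma at 24 h or past the fold on both arrays with PACAP38 in PMCAO, and the 5 probes most correlated with Il1b. Members and lists were chosen with earlier results of these data known, so no test was made over a list. Probe positions are those of the file headers (mm7). Names came from RefSeq by accession for 22951 probes and from the files for 11758. The pituitary and choroid plexus lists, which could mark dissection, are given in the closing section.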

Additional observations from a re-analysis of the deposited data

Results flagged for a closer look

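Il1b differed between the times in opposite directions with PACAP38 in PMCAO. Both arrays were above 0 at 6 h (1.29 and 1.00) and both below 0 at 24 h, where the mean log2 ratio was -2.06. Il1rap probe A_52_P467232 did the same, with 1.08 and 0.96 at 6 h and a mean of -1.13 at 24 h. These differences between times were not tested, since each comparison has 1 replicate, and the times were on different slides.

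In PMCAO over sham, the 24 h minus 6 h contrast of limma was past its threshold for Il1rn A_52_P431159 (log2 3.504, adjusted p = 0.027), whose sham pools were not well above background, so the size is not a bound. It was also past it for Il1rap A_51_P136742 (log2 -1.20, adjusted p = 0.034). Without array 2 of the sham pools of 6 h the values were 3.59 (adjusted p = 0.24) and 0.21 (adjusted p = 0.71) by limma.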

How the results depend on the processing

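Counts of member probes past the fold moved as follows. With normexp and loess the PACAP38 over saline counts were 0 for sham at 6 h and 0 for PMCAO at 6 h. For sham at 6 h the count was also 0 with 1.5-fold either way and 0 when both arrays had to pass. With 1 array alone the counts were 1 to 6 for sham at 6 h, 5 to 6 for PMCAO at 6 h, 5 to 7 for sham at 24 h and 10 to 12 for PMCAO at 24 h, where normexp left 6. For PMCAO over sham, normexp gave 2 for saline at 6 h, 2 for PACAP38 at 6 h and 3 for PACAP38 at 24 h, and keeping only probes well above background gave 4 and 3 at 6 h. Normexp with its offset compresses dim probes by construction.

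In limma, PACAP38 kept 0 calls under all alternatives. For PMCAO over sham at 6 h, leaving out a pool pair or the array that stood apart gave 3 to 17013 probes and 0 to 7 members, and normexp 2 members. At 24 h the same gave 0 to 1512 probes and 0 to 6 members. There normexp gave 3326 probes and 1 member, and a trend 2188 and 5. Members were 1 with the median as the scale, 5 with only probes above background and 1 with outlier spots kept. The replicate block gave 2954 probes and 6 members at 24 h. Of 24 h minus 6 h, leaving out a pool pair or that array gave 0 to 6779 probes and 0 to 5 members, and the median and normexp 1 member each.

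Of single values past a fold or the limma threshold, these turned sign, with the range over leaving out 1 array or pool pair. Il1rap A_51_P136742 in PMCAO over sham was at -0.17 to 3.22 with saline at 6 h, at -0.017 to 1.53 in limma at 6 h and at -1.5 to 0.21 for 24 h minus 6 h, each time crossing 0 without array 2 of the sham pools of 6 h. Il1rl1 A_52_P484194 in limma at 6 h was at -0.027 to 0.53 in the same way. Il1b with PACAP38 at 6 h was at -0.52 to 2.23 with 1 array each, and Il1rap A_52_P467232 with saline at 6 h was at 0.0024 with normexp. The cause was not tested. Among values past neither fold, Il1b with saline at 6 h went from -0.41 to 0.59 without that sham array, and Il1rap A_52_P467814 was at -0.62 and 0.38 in the dyes. Signal near background limits Il1a, Il1rn in sham and 6 h pools, Il1rap A_51_P136742 and 3 probes without any signal well above background.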

Other observations

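The 5 probes of other named genes most like Il1b over the 8 pools, by Pearson correlation of log2 signal among 25925 probes, were LOC433016 (0.989), S100a11 (0.976), B3gnt5 (0.974), Kcnj8 (0.974) and Anxa2 (0.972). Without array 2 of the sham pools of 6 h all 5 places were taken by others, Il6 (0.989), Ecm1 (0.985), Plek (0.983), Adam8 (0.983) and Slpi (0.983). The points share slides and arrays, and these are descriptions. Slpi, a secreted protease inhibitor, had signals of 1140 in the PMCAO plus saline pool and 252 in the PMCAO plus PACAP38 pool of 24 h. Adam8, a myeloid cell surface protease, had 5799 and 1756.

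Some other markers differed between pools. In the pituitary list, 1 of 4 genes above background was downregulated with PACAP38 in PMCAO at 24 h (8.18% of all probes), Prl. It was at 130 in the PMCAO plus saline pool and 3.83 in the PMCAO plus PACAP38 pool. The other 3 were at log2 ratios above 0, 2 of them upregulated (2.99%), Cga (1.78) and Tshb (0.67). In sham at 24 h the log2 ratios of the 4 with PACAP38 ran from -3.52 to 2.65. There 1 was downregulated (3.87%) and 1 upregulated (1.75%), both on both arrays (0.892% and 0.226%). The 3 choroid plexus markers had a median log2 ratio of -0.30 with PACAP38 in PMCAO at 24 h. Probes more than 8-fold lower in both pools of a surgery and time than in the 6 others numbered 28 for sham at 6 h, 11 for sham at 24 h, 10 for PMCAO at 24 h and 0 for PMCAO at 6 h, none of them a member. Aldh1l1, an astrocyte enzyme, was at 144 and 167 in the sham pools of 24 h and at 4357 to 6723 in the others. The part of these differences in the IL-1 family values was not tested.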
